A study of Homo sapiens with 8 samples.

Results

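The endoplasmic reticulum (ER) chaperones and the genes of the unfolded protein response were followed across VHL status and oxygen supply in the renal carcinoma line 786-O. The set comprised 37 genes, chosen for their roles in ER protein folding, in ER-associated degradation (ERAD) and in the sensing of unfolded proteins. A gene was represented by the transcript cluster of the array that is annotated with its symbol alone, and by the cluster with the highest mean over the 8 arrays where there was more than 1. This gave a value for 36 of the 37 genes, out of 18417 genes on the array with such a cluster. PDIA3, a disulfide isomerase that works with the lectin chaperones, was left without a value, because its clusters share their annotation with the pseudogene PDIA3P1. P4HB was the member with 2 clusters.

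786-O cells lack functional VHL, the subunit of a ubiquitin ligase that recognises the α subunits of hypoxia-inducible factor (HIF) in the presence of oxygen. The groups were 786-O cells stably transfected with a VHL overexpression vector (VHL+) and untransfected 786-O cells (VHL-), each kept for 24 h under normoxia or under hypoxia, which the methods give as 1% O2. Each of the 4 groups had 2 arrays, named biological replicates by the labels, so that VHL+ normoxia, VHL- normoxia, VHL+ hypoxia and VHL- hypoxia were measured on 8 arrays in all. All cells carry the background of this line, which is known to produce HIF-2α but no functional HIF-1α. No array of cells with the empty vector was among these groups, so that VHL itself and the transfection with its selection cannot be told apart. The transfectants are described as bulk cultures, and RNA of a whole culture does not separate fewer expressing cells from less RNA per cell.

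Proteins that enter the ER are folded by the Hsp70 chaperone BiP (HSPA5) with its cochaperones, by the Hsp90 paralog GRP94 (HSP90B1), by the lectin chaperones calnexin and calreticulin and by the protein disulfide isomerases, while proteins that fail to fold are returned to the cytosol and degraded by ERAD. When unfolded proteins accumulate, the sensors IRE1α (ERN1), ATF6 and PERK (EIF2AK3) are activated. IRE1α splices the mRNA of XBP1, the cytosolic part of ATF6 enters the nucleus, and PERK phosphorylates eIF2α, which reduces translation but favours that of ATF4. XBP1 and ATF6 then induce the chaperones through the ER stress response element of their promoters. Gene arrays measure the abundance of these mRNAs and neither the splicing of XBP1 nor the activity of the sensors.

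Several promoters of the set share an element. Promoter sequences of RefSeq (GRCh38.p14), each from 250 bases before to 50 bases after an annotated start, were matched by symbol for 33 members (40 promoters). The ER stress response element ERSE, searched as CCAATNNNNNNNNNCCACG on both strands, was present in promoters of 7 of the 33 members (HSPA5, HSP90B1, CALR, CANX, CRELD2, PDIA6 and XBP1). Counted by promoter, it was in 9 of their 40, and in 27 of all 35116 promoters of this length (0.0769%), those of the members included. Overlapping windows of CANX hold the same site. The element ERSE-II, searched as ATTGGNCCACG, was present in promoters of 3 members (HERPUD1, HYOU1 and SDF2L1), 3 of the 40, and in 19 promoters in all (0.0541%). HSPA5, HSP90B1 and HERPUD1 are among the genes in which the elements were defined, so that a match is a description of the set and not a result. The promoters of the ER chaperone HSPA5, of PDIA6, of the ERAD gene HERPUD1 and of the transcription factor XBP1 are shown because these genes recur below, with the element in capitals and each read 5′ to 3′ on the strand of the gene. They lie at chr9:125241294-125241593 (minus strand, HSPA5), chr2:10812736-10813035 (minus strand, PDIA6), chr16:56931892-56932191 (plus strand, HERPUD1) and chr22:28800520-28800819 (minus strand, XBP1).
HSPA5: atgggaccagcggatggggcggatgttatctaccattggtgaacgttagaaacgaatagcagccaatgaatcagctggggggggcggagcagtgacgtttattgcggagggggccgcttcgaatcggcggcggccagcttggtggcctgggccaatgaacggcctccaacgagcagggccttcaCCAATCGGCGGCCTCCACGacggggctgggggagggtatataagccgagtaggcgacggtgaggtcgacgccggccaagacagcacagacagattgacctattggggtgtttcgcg
PDIA6: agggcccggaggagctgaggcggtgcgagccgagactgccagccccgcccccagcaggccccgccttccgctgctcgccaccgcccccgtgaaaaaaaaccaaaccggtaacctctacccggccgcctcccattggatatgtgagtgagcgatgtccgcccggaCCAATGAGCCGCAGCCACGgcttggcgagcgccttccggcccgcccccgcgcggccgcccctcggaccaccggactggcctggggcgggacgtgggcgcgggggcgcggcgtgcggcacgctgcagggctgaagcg
HERPUD1: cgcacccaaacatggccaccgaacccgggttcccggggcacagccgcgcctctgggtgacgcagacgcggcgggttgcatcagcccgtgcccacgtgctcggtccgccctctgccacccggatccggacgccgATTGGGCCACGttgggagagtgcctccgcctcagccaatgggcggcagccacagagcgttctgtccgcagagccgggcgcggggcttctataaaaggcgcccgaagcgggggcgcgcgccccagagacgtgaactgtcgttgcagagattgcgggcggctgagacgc
XBP1: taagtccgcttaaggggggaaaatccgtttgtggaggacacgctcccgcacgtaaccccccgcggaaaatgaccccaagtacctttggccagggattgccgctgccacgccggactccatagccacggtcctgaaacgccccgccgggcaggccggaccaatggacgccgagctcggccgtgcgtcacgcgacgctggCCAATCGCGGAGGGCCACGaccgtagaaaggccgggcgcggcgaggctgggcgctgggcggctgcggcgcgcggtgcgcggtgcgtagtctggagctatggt

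The element covered bases -66 to -48 relative to the start in HSPA5, -86 to -68 in PDIA6, -117 to -107 in HERPUD1 and -52 to -34 in XBP1. HSP90B1 held 2 copies of ERSE, beginning at -194 and -89, and HYOU1 held 2 copies of ERSE-II, beginning at -185 and -79. The core TGACGTGG of the unfolded protein response element to which XBP1 binds was found in promoters of DNAJC10 and HYOU1 (2 of the 40), and in 0.729% of all promoters. Its letters overlap those of ERSE-II in HYOU1. No exact ERSE or ERSE-II was in the windows of PDIA4, DNAJC3 and EIF2AK3. The HIF core motif with its preceding T occurred as TACGTG in promoters of 3 members (SSR1, SYVN1 and XBP1) and as TGCGTG in those of 7 members. Counted by promoter, these were 3 and 7 of the 40, against 3.24% and 9.54% of all promoters.

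The array values are log2 signals normalized by RMA, between 4.81 and 14.0, with array medians between 6.60 and 6.91 and correlations between replicates of 0.991 to 0.994. VHL had higher signals on all 4 arrays of VHL+ cells (8.85 to 9.16) than on those of VHL- cells (8.23 to 8.51). Of 5 markers of the renal carcinoma line, PAX8, PAX2, VIM, KRT8 and KRT18, all were above the median of every array, while 9 of 10 measured markers of leukocytes, endothelium, hepatocytes and smooth muscle were below it on every array. None of those 10 markers passed the test in any comparison (0 at an unadjusted p under 0.05 in each of the 7). The overall level of the arrays differed between groups. The median log2 fold change over all 18417 genes was 0.18 for VHL+ vs. VHL- cells under hypoxia, 0.11 for hypoxia vs. normoxia in VHL+ cells and -0.11 in VHL- cells, and 0.22 for the interaction, while it was 0.01 or less after quantile normalization of the arrays. Counts and medians of the set are therefore read beside those of all genes and after quantile normalization.

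All 36 measured genes were above the array median on all 8 arrays, among them the leading chaperones, the sensors and the ERAD genes. The differences between groups were small compared with these levels. A member's range over the 8 arrays ran from 0.22 on the log2 scale for ERN1, the gene of IRE1α, to 1.19 for DNAJC3, a cochaperone of BiP. Besides DNAJC3, the range exceeded 1 for DNAJC10, SEL1L and HERPUD1.

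**Figure D1:**
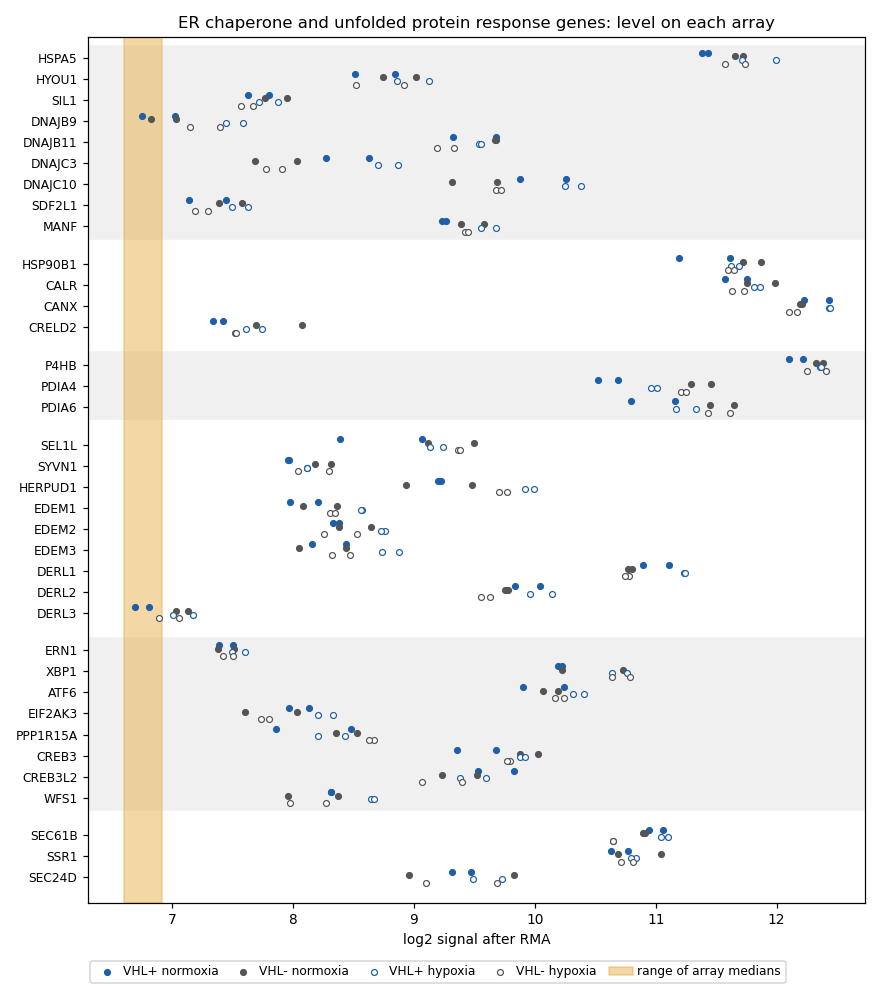
Log2 signal (horizontal axis) of the 36 measured genes on each of the 8 arrays, with 2 points a group, rows ordered and shaded by role, and the range of the array medians (6.60 to 6.91) as a band. The points of a gene lie close together, within 0.22 (ERN1) to 1.19 (DNAJC3), and the signals of different genes are not on a common scale.

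The first question was how re-expression of VHL changes the set under normoxia. In VHL+ vs. VHL- cells under normoxia, 2 genes rose (DNAJC3 and DNAJC10) and 2 fell (PDIA4 and PDIA6), whereas BiP, GRP94 and the sensors did not pass the test (limma, adjusted p under 0.05 over all 33297 transcript clusters). Among all transcript clusters, 2.07% were called higher and 2.69% lower, and among all genes 3.17% and 3.40%. The share of the set, 2 of 36 (5.56%) in each direction, rests on few genes and was not tested against this background. The median log2 fold change of the 36 genes was -0.16, against -0.03 over all genes, and was again -0.16 after quantile normalization. Under hypoxia, 7 of 36 genes (19.4%) were higher and 0 lower, against 10.3% and 1.31% of all clusters and 14.3% and 1.72% of all genes. At an unadjusted p under 0.05, 11 genes were higher and 0 lower, where 21.4% and 2.59% of all clusters were. Of all 18417 genes, 5643 were under it in either direction, a share near that of the set. The median of the set was then 0.20, next to 0.18 over all genes, and 30 of 36 genes (83.3%) had a positive value, next to 87.1% of all genes. After quantile normalization the sign of the median turned, to -0.04 against 0.01 over all genes, with 14 positive genes (38.9%, against 53.8%). Over all arrays, with oxygen supply as a second factor, 5 genes were higher and 2 lower in VHL+ cells, against 10.6% and 3.72% of all clusters, a share of the members close to the background in both directions. The median was 0.05 (0.07 over all genes), and -0.09 (0.01 over all genes) after quantile normalization. The 3 comparisons share arrays and are not independent of each other.

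Of the roles in the set, the protein disulfide isomerases had the lowest median log2 fold change with VHL, at -0.57 under normoxia over 3 measured genes. PDIA4 (ERp72), which forms and rearranges disulfide bonds in the ER, had log2 signals of 10.53 and 10.68 in normoxic VHL+ cells, against 11.29 and 11.46 in normoxic VHL- cells. Its hypoxia arrays gave 10.96 and 11.01 for VHL+ cells and 11.21 and 11.25 for VHL- cells. All 4 arrays of VHL+ cells were below all 4 arrays of VHL- cells, with the lowest values in VHL+ cells under normoxia. The log2 fold change under normoxia was -0.77 (SE 0.14, adjusted p = 0.00173), a 1.71-fold lower signal, and the call held without each single array (adjusted p between 7.08e-05 and 0.0331). It was lost in the fit to the compared groups alone. It was also lost with the methods' one-way test when run on this pair of groups, before and after adjustment. Run over the 4 groups, the one-way test at an unadjusted p under 0.005 passed 2 genes of the set, PDIA4 and SEC61B. It passed 590 of all 33297 clusters, and after adjustment 0 genes of the set and 0 clusters. Under hypoxia the log2 fold change was -0.25 (SE 0.14, adjusted p = 0.286), and -0.47 after quantile normalization with an adjusted p of 0.0143. The 2 fold changes were not shown to differ (interaction 0.52, SE 0.19, adjusted p = 0.651).

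PDIA6 (P5), a further disulfide isomerase of the ER and a gene with an ERSE, had log2 signals of 10.80 and 11.16 in VHL+ cells and 11.45 and 11.65 in VHL- cells under normoxia. Its hypoxia arrays gave 11.33 and 11.17 for VHL+ cells, against 11.43 and 11.61 for VHL- cells. The 4 arrays of VHL+ cells again lay below the 4 of VHL- cells. The log2 fold change was -0.57 (SE 0.15, adjusted p = 0.0363) under normoxia, -0.27 (adjusted p = 0.301) under hypoxia and -0.42 (SE 0.11, adjusted p = 0.0112) over all arrays. The call under normoxia was lost without VHL+ normoxia replicate 1, VHL- normoxia replicate 2 or either array of VHL+ hypoxia (adjusted p up to 0.325), and that over all arrays without VHL- normoxia replicate 2 (adjusted p = 0.0675). P4HB, the classical disulfide isomerase, had a log2 fold change of -0.19 (adjusted p = 0.721) under normoxia and 0.03 (adjusted p = 0.878) under hypoxia, and its other cluster -0.24 and 0.12 (adjusted p = 0.538 and 0.597).

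In the Hsp70 system of the ER, 2 of 9 genes, both cochaperones, passed the test, and BiP did not. Of all genes, 3.17% were higher in VHL+ cells under normoxia, 14.3% under hypoxia and 14.9% over all arrays. DNAJC3 (P58IPK), which delivers unfolded proteins to BiP and is also known as an inhibitor of PERK, had log2 signals of 8.27 and 8.63 in normoxic VHL+ cells, against 8.03 and 7.68 in normoxic VHL- cells. With hypoxia the signals were 8.87 and 8.70 in VHL+ cells, against 7.91 and 7.77 in VHL- cells. Every array of VHL+ cells was above every array of VHL- cells. The log2 fold change was 0.59 (SE 0.16, adjusted p = 0.0355) under normoxia, 0.94 (SE 0.16, adjusted p = 0.000781) under hypoxia and 0.77 (SE 0.12, adjusted p = 3.21e-05) over all arrays, the largest log2 fold change of the set over all arrays, with a fold of 1.70.

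DNAJC10 (ERdj5), a disulfide reductase that assists BiP in ERAD, had 9.88 and 10.26 in normoxic VHL+ cells, against 9.69 and 9.32 in normoxic VHL- cells. Hypoxic VHL+ cells gave 10.38 and 10.25, against 9.68 and 9.72 in hypoxic VHL- cells. Its arrays were likewise separated by VHL status at both oxygen levels. The log2 fold change was 0.57 (SE 0.16, adjusted p = 0.0471) under normoxia, 0.62 (SE 0.16, adjusted p = 0.0158) under hypoxia and 0.59 (SE 0.11, adjusted p = 0.000457) over all arrays. Over all arrays, the calls of DNAJC3 and DNAJC10 were kept in 18 of 18 alternative settings. Within a single oxygen condition they were not. After quantile normalization the log2 fold change of DNAJC3 was 0.58 (adjusted p = 0.0764) under normoxia and 0.68 (adjusted p = 0.0513) under hypoxia, and that of DNAJC10 0.55 (adjusted p = 0.0844) and 0.34 (adjusted p = 0.268). The values under normoxia hardly moved with the scaling, and their standard errors were no larger (0.15 for both). Under hypoxia the values fell, from 0.94 to 0.68 for DNAJC3 and from 0.62 to 0.34 for DNAJC10. The prior degrees of freedom of the fit, which set how firmly limma draws on the spread of all clusters, were 2.82 in place of 14.0. What the loss of these calls depends on was not tested. Under normoxia both calls were lost without VHL+ normoxia replicate 2, VHL- normoxia replicate 2 or either array of VHL+ hypoxia (adjusted p up to 0.479 for DNAJC3 and 0.609 for DNAJC10), and under hypoxia without either array of VHL+ hypoxia (up to 0.114 and 0.277).

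BiP itself (HSPA5) had log2 signals of 11.39 and 11.43 in normoxic VHL+ cells, against 11.72 and 11.66 in normoxic VHL- cells. In hypoxic VHL+ cells they were 11.71 and 11.99, against 11.57 and 11.74 in hypoxic VHL- cells. Its log2 fold change was -0.28 (95% interval -0.58 to 0.01, adjusted p = 0.417) under normoxia and 0.20 (-0.10 to 0.49, adjusted p = 0.421) under hypoxia. The remaining 6 genes of this group, the nucleotide exchange factors HYOU1 and SIL1, the J proteins DNAJB9 and DNAJB11, SDF2L1 and the BiP-binding factor MANF, had log2 fold changes between -0.23 and -0.05 under normoxia and between 0.18 and 0.31 under hypoxia, and none was called.

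GRP94 (HSP90B1) had log2 signals of 11.19 and 11.62 in VHL+ cells and 11.72 and 11.87 in VHL- cells under normoxia. Hypoxic VHL+ cells gave 11.62 and 11.69, against 11.60 and 11.65 in hypoxic VHL- cells. VHL+ cells were thus lower on both arrays under normoxia, while the arrays of both cell types overlapped under hypoxia, with log2 fold changes of -0.39 (SE 0.15, adjusted p = 0.193) and 0.03 (adjusted p = 0.900). Of the other genes of its group, CRELD2, an ER protein induced by ER stress, had -0.51 under normoxia (adjusted p = 0.0558), the lectin chaperone CALR -0.21 and the lectin chaperone CANX 0.13, and none of the 4 genes was called under either oxygen condition (2 under normoxia and 1 under hypoxia at an unadjusted p under 0.05).

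**Figure D2:**
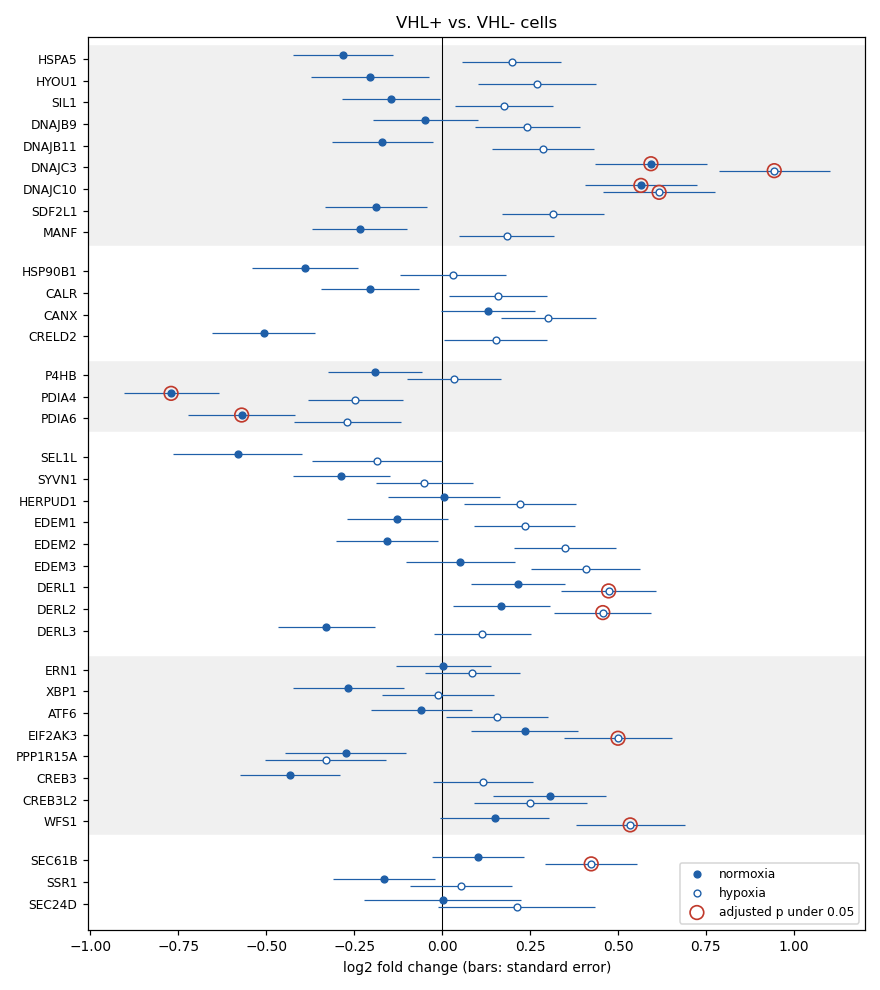
Log2 fold change of VHL+ vs. VHL- cells (horizontal axis, bars are standard errors from limma) for the 36 measured genes under normoxia (filled) and hypoxia (open), ordered by role, with circles around calls at an adjusted p under 0.05. PDIA4 (-0.77) and PDIA6 (-0.57) lie lowest among the calls and DNAJC3 (0.94 under hypoxia) highest.

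In the ERAD group, the derlins DERL1 and DERL2 were higher in VHL+ cells under hypoxia and over all arrays. DERL1, a membrane protein of the channel through which ERAD substrates leave the ER, had log2 signals of 10.90 and 11.11 in normoxic VHL+ cells, against 10.81 and 10.77 in normoxic VHL- cells. With hypoxia the signals were 11.23 and 11.24 in VHL+ cells, against 10.78 and 10.74 in VHL- cells. DERL2, its paralog, had 9.84 and 10.04 in normoxic VHL+ cells, against 9.76 and 9.78 in normoxic VHL- cells, and 10.14 and 9.96 in hypoxic VHL+ cells, against 9.56 and 9.63 in hypoxic VHL- cells. For both genes, no array of VHL+ cells was below an array of VHL- cells. The log2 fold change under hypoxia was 0.47 for DERL1 (SE 0.13, adjusted p = 0.0275) and 0.46 for DERL2 (SE 0.14, adjusted p = 0.0376). Over all arrays it was 0.34 for DERL1 (adjusted p = 0.0241) and 0.31 for DERL2 (adjusted p = 0.0491). The calls under hypoxia did not hold without either array of VHL+ hypoxia, of VHL- hypoxia or of VHL- normoxia, nor after quantile normalization (log2 fold change 0.23 and adjusted p = 0.143 for DERL1, 0.19 and 0.229 for DERL2). Those over all arrays did not hold without either array of VHL+ hypoxia or VHL- hypoxia, VHL+ normoxia replicate 2 or VHL- normoxia replicate 2 (adjusted p up to 0.144 for DERL1 and 0.189 for DERL2) nor, for DERL2, without VHL- normoxia replicate 1 or after quantile normalization (adjusted p = 0.0511).

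DERL3, the third derlin, had a log2 fold change of -0.33 under normoxia (adjusted p = 0.252) and 0.11 under hypoxia (adjusted p = 0.615). SEL1L and SYVN1, the adaptor and the ubiquitin ligase of the HRD1 complex, had -0.58 and -0.29 under normoxia and -0.19 and -0.05 under hypoxia. Neither was called. The mannosidase-like proteins EDEM1, EDEM2 and EDEM3, which mark glycoproteins for degradation, had values from -0.16 to 0.05 under normoxia and from 0.23 to 0.41 under hypoxia, without a call.

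Among the sensors and transcription factors, 2 of 8 genes passed the test with VHL, both under hypoxia. Of all genes, 14.3% were higher in that comparison. After quantile normalization, 0 of the 8 were called in it. EIF2AK3, the gene of PERK, had log2 signals of 7.97 and 8.13 in normoxic VHL+ cells, against 8.04 and 7.60 in normoxic VHL- cells, with overlap of the arrays. Hypoxic VHL+ cells gave 8.34 and 8.20, against 7.80 and 7.74 in hypoxic VHL- cells, and here the arrays were separated. Its log2 fold change was 0.24 (adjusted p = 0.661) under normoxia, 0.50 (SE 0.15, adjusted p = 0.0400) under hypoxia and 0.37 (SE 0.11, adjusted p = 0.0266) over all arrays. WFS1, an ER membrane protein that restrains ER stress signalling, had 8.31 and 8.32 in normoxic VHL+ cells, against 8.37 and 7.96 in normoxic VHL- cells. In hypoxic VHL+ cells it had 8.65 and 8.67, against 8.28 and 7.98 in hypoxic VHL- cells. With VHL, its log2 fold change under hypoxia was 0.53 (SE 0.16, adjusted p = 0.0308). Without either array of VHL+ hypoxia both calls under hypoxia were lost (adjusted p up to 0.356 for EIF2AK3 and 0.267 for WFS1), as they were without VHL- hypoxia replicate 2 and, for EIF2AK3, VHL- hypoxia replicate 1. After quantile normalization their log2 fold changes under hypoxia were 0.24 (adjusted p = 0.503) and 0.26 (adjusted p = 0.592). The call of EIF2AK3 over all arrays was lost without either array of VHL+ hypoxia or VHL- hypoxia, VHL+ normoxia replicate 2 or VHL- normoxia replicate 2 (adjusted p up to 0.171), and after quantile normalization (adjusted p = 0.171).

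The sensors ERN1 and ATF6 and the transcription factor XBP1 were not called with VHL. ERN1 had signals of 7.39 and 7.51 in normoxic VHL+ cells, against 7.38 and 7.51 in normoxic VHL- cells, and of 7.60 and 7.50 in hypoxic VHL+ cells, against 7.42 and 7.51 in hypoxic VHL- cells, the smallest range of the set. The 95% interval of its log2 fold change was -0.28 to 0.29 under normoxia and -0.20 to 0.37 under hypoxia. ATF6 had 9.90 and 10.25 in normoxic VHL+ cells, against 10.07 and 10.19 in normoxic VHL- cells, and 10.32 and 10.40 in hypoxic VHL+ cells, against 10.17 and 10.24 in hypoxic VHL- cells. XBP1 had 10.23 and 10.20 in normoxic VHL+ cells, against 10.22 and 10.73 in normoxic VHL- cells, and 10.77 and 10.64 in hypoxic VHL+ cells, against 10.64 and 10.79 in hypoxic VHL- cells. The arrays of both cell types overlapped for ATF6 under normoxia and for XBP1 at both oxygen levels. The log2 fold changes were -0.06 and 0.16 for ATF6 and -0.27 and -0.01 for XBP1, all with an adjusted p of at least 0.525. The remaining 3 genes, PPP1R15A (GADD34, which directs the phosphatase to eIF2α) and the membrane-bound transcription factors CREB3 and CREB3L2, lay between -0.43 and 0.31 under normoxia and between -0.33 and 0.25 under hypoxia, and were not called.

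Of the genes for entry to and exit from the ER, SEC61B, a subunit of the translocon, passed the test under hypoxia. It had log2 signals of 11.10 and 11.04 in hypoxic VHL+ cells, against 10.65 and 10.65 in hypoxic VHL- cells. The difference was 0.42 on the log2 scale (SE 0.13, adjusted p = 0.0427). Normoxic VHL+ cells gave 11.06 and 10.95, against 10.89 and 10.91 in normoxic VHL- cells (log2 fold change 0.10). The call was lost after quantile normalization (log2 fold change 0.19, adjusted p = 0.413) and without either array of VHL+ hypoxia, VHL- hypoxia or VHL- normoxia (adjusted p up to 0.197). SSR1, of the translocon-associated complex, and SEC24D, of the coat of vesicles leaving the ER, were not called.

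**Figure D3:**
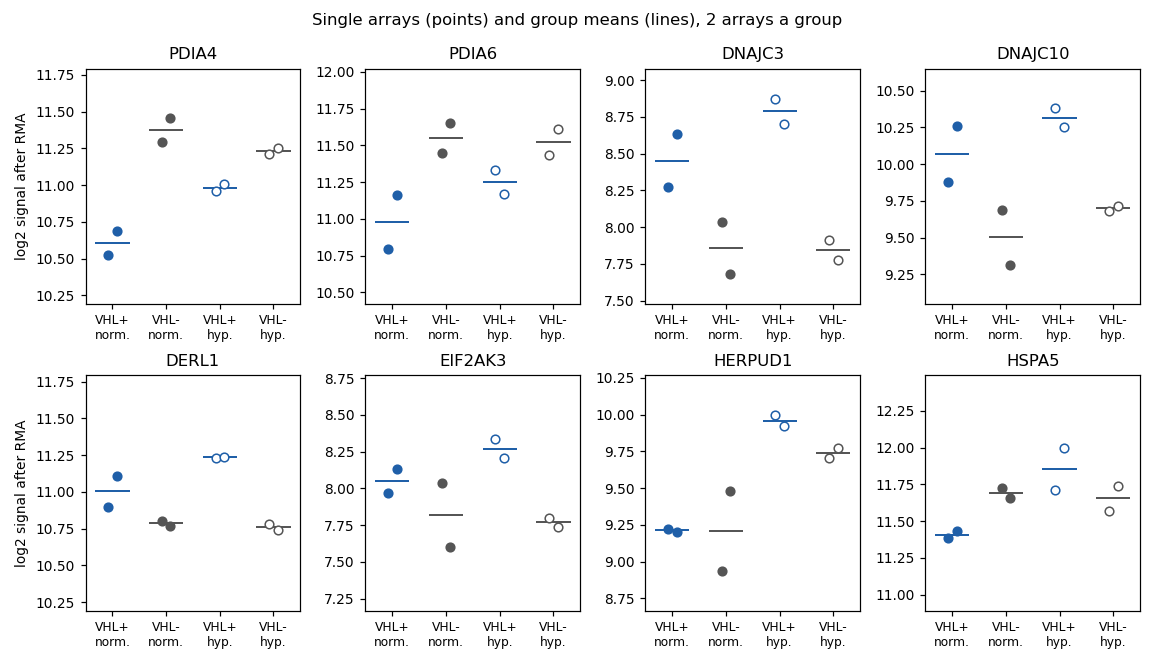
Log2 signal (vertical axis, each panel spanning the same width of the scale) of 8 genes on the single arrays, as points, with lines at the group means of 2 arrays, for VHL+ normoxia, VHL- normoxia, VHL+ hypoxia and VHL- hypoxia from left to right. PDIA4 and PDIA6 are lower on all arrays of VHL+ cells, DNAJC3, DNAJC10 and DERL1 are higher on all of them, and HERPUD1 is higher on all 4 hypoxia arrays.

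The calls were also counted after the differences in overall level between the arrays had been removed. After quantile normalization, VHL+ vs. VHL- cells under normoxia gave 0 genes higher and 3 lower (PDIA4, PDIA6 and DERL3), against 2.70% and 2.72% of all clusters. Under hypoxia it gave 0 higher and 2 lower (PDIA4 and PDIA6), against 2.76% and 2.74%, in place of 7 higher and 0 lower. Over all arrays it gave 3 higher (DNAJC3, DNAJC10 and DERL1) and 5 lower (PDIA4, PDIA6, SEL1L, SYVN1 and PPP1R15A), against 8.40% and 7.60%. DNAJC3 and DNAJC10 were thus higher and PDIA4 and PDIA6 lower over all arrays under both scalings, with log2 fold changes of 0.63, 0.45, -0.62 and -0.53 after quantile normalization. The shift under hypoxia was also seen in the 10 markers of other cell types, all of which had positive log2 fold changes between 0.11 and 0.22 on the deposited values. Without regard to size, 6 of the 36 genes were higher on all 4 arrays of VHL+ cells than on any array of VHL- cells (DNAJC3, DNAJC10, CANX, DERL1, DERL2 and SEC61B) and 2 were lower (PDIA4 and PDIA6), against 10.1% and 3.34% of all clusters. Of all genes, 13.9% were higher and 4.14% lower in this way, on the deposited values.

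The second question was the response to hypoxia. Within VHL- cells, 0 genes of the set were called by limma in either direction (0 higher and 1 lower with the methods' one-way test at an unadjusted p under 0.005), against 0.0210% of all clusters higher and 0.0450% lower. At an unadjusted p under 0.05, 2 were higher and 2 lower, where 0.478% and 4.82% of all clusters were. Within VHL+ cells, likewise 0 were called by limma (3 higher with the methods' test), against 0.150% and 0.00300% of all clusters. At an unadjusted p under 0.05 there were 14 higher (38.9%) and 0 lower, against 5.76% and 0.402% of all clusters. Of all 18417 genes, 759 were under that threshold in either direction in VHL- cells, 1511 in VHL+ cells and 1004 over all arrays. Over all arrays, 1 gene was higher and 0 lower, against 0.111% and 0.0601% of all clusters, with 5 higher and 0 lower at an unadjusted p under 0.05, against 2.63% and 2.32%.

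This gene was HERPUD1, which links ubiquitin ligases of ERAD to their substrates and is known as a gene induced early in the unfolded protein response. It had log2 signals of 10.00 and 9.92 in VHL+ cells under hypoxia, against 9.22 and 9.20 under normoxia. In VHL- cells it had 9.70 and 9.77 under hypoxia, against 8.94 and 9.48 under normoxia. All 4 hypoxia arrays were above all 4 normoxia arrays. Its log2 fold change was 0.64 over all arrays (SE 0.12, adjusted p = 0.0169, fold 1.56), 0.75 in VHL+ cells (adjusted p = 0.0815) and 0.53 in VHL- cells (adjusted p = 0.457). The call was lost without VHL+ hypoxia replicate 1 (adjusted p = 0.633) and after quantile normalization (log2 fold change 0.61, adjusted p = 0.179).

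The other gene whose 4 hypoxia arrays were all above the 4 normoxia arrays was DNAJB9 (ERdj4), a J protein that is bound to IRE1α and is a known target of XBP1; it was singled out after its values had been seen. DNAJB9 had 7.58 and 7.45 in hypoxic VHL+ cells, against 6.75 and 7.02 in normoxic VHL+ cells, and 7.15 and 7.40 in hypoxic VHL- cells, against 6.83 and 7.04 in normoxic VHL- cells. Its log2 fold change over all arrays was 0.49 (SE 0.11, adjusted p = 0.0716). These 2 genes of 36 compare with 0.450% of all clusters whose hypoxia arrays were all above the normoxia arrays and 0.502% with all below, and no gene of the set was below on all 4. Of all genes, 0.646% were above and 0.190% below in this way.

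For the leading chaperones and sensors, hypoxia in VHL+ cells gave log2 fold changes of 0.45 for HSPA5 (95% interval 0.15 to 0.74, adjusted p = 0.450), 0.25 for HSP90B1 (adjusted p = 0.895), 0.49 for XBP1 (0.16 to 0.82, adjusted p = 0.468), 0.29 for ATF6 (adjusted p = 0.840) and 0.10 for ERN1 (adjusted p = 0.971). In VHL- cells the same genes had -0.03, -0.17, 0.24, 0.07 and 0.02, with an adjusted p of at least 0.806. EIF2AK3 had 0.22 in VHL+ cells and -0.05 in VHL- cells. The number of arrays limits what these intervals can show.

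**Figure D4:**
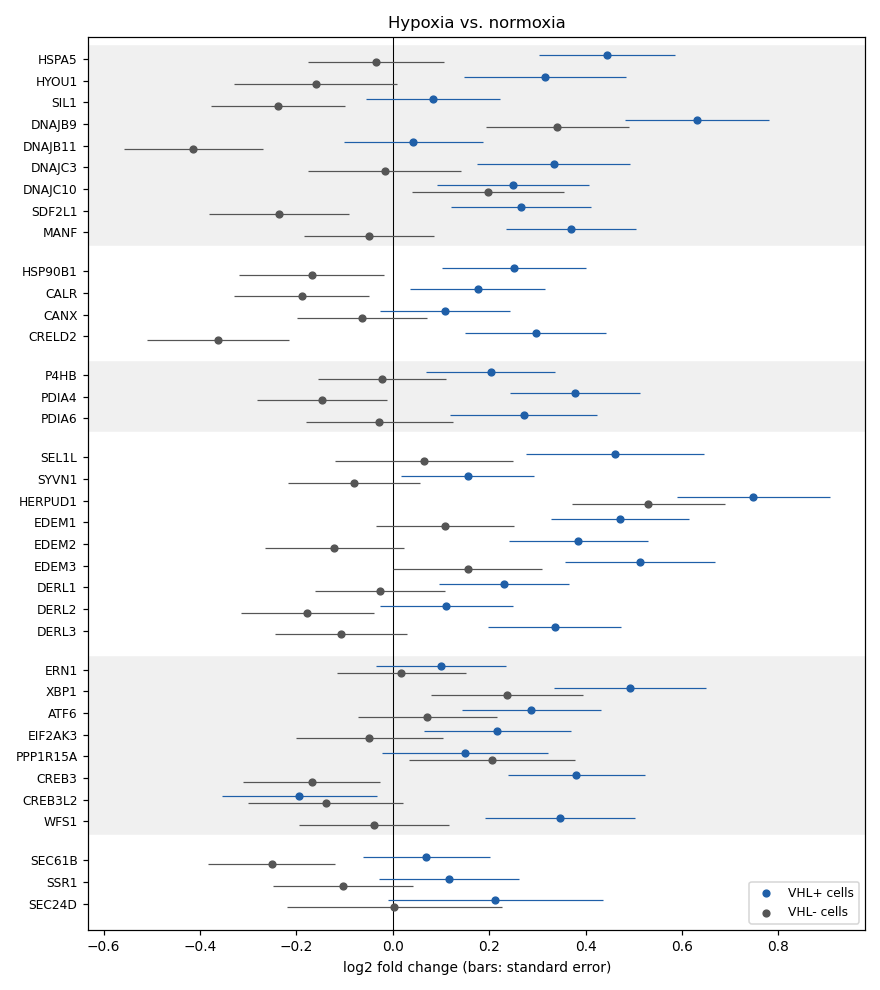
Log2 fold change of hypoxia vs. normoxia (horizontal axis, bars are standard errors from limma) for the 36 measured genes in VHL+ cells (blue) and VHL- cells (grey), ordered by role. HERPUD1 has the highest value in both (0.75 in VHL+ cells and 0.53 in VHL- cells), 35 of 36 genes are above 0 in VHL+ cells, as are 85.6% of all genes, and no gene of the set was called within either cell type.

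The signs of the values were counted for the set as a whole. In VHL+ cells, 35 of 36 genes had a positive log2 fold change with hypoxia, CREB3L2 being the exception (-0.19), while 85.6% of all genes were positive. The median was 0.27, against 0.11 over all genes. For 27 of the 36 genes (75.0%) both hypoxia arrays of VHL+ cells were above both normoxia arrays, against 33.9% of all genes and 28.0% of all clusters. For 0 they were both below, against 1.11% and 2.38%. This separation was counted on the deposited values only, where the level of the arrays differed. In the lists of further genes described below, the share above was 79.2% for ER folding and glycosylation and 37.5% for translocation and ER exit. It was 21.4% for ERAD and 30.0% for regulators of the unfolded protein response. Genes downstream of ATF4 had 60.0%, and cytosolic and mitochondrial heat shock proteins 58.3%. In VHL- cells, 11 of 36 (30.6%) were positive, against 16.2% of all genes, with a median of -0.05, against -0.11 over all genes. After quantile normalization 26 genes were positive in VHL+ cells (72.2%, against 54.1% of all genes) and 20 in VHL- cells (55.6%, against 53.5%), with medians of 0.12 and 0.02, against 0.01 over all genes in both.

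The test of the difference between these responses, the interaction of VHL and hypoxia, called 0 genes of the set (limma), against 0.00601% of all clusters higher and 0% lower. At an unadjusted p under 0.05 there were 9 with a positive and 0 with a negative value, against 5.53% and 0.0841% of all clusters. Of all 18417 genes, 1079 were under it in either direction. A positive value was the rule on this scale, with 34 of 36 genes (94.4%) and 95.9% of all genes, but not after quantile normalization, with 26 of 36 (72.2%) and 50.3%. Its median was 0.32, against 0.22 over all genes, and 0.09 after quantile normalization. Every gene of the set had an adjusted p of at least 0.651 in this test.

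The group means of each gene were also ranked. VHL+ cells under normoxia had the lowest mean of the 4 groups for 20 of 36 genes (55.6%), against 23.8% of all genes, and for 20 of 36 (55.6%), against 25.5% of all genes, after quantile normalization. Among those 20 on the deposited values were HSPA5, HSP90B1, CALR, HYOU1, all 3 disulfide isomerases, XBP1 and ATF6. For all of the 20 but MANF and XBP1, replicate 1 of VHL+ normoxia was below replicate 2. The gap was wide for SEL1L (8.39 and 9.07) and HSP90B1 (11.19 and 11.62) and narrow for HSPA5 (11.39 and 11.43). The ranking was not repeated without either array. VHL+ cells under hypoxia had the highest mean for 22 genes (61.1%), which was near the 61.7% of all genes, and for 9 (25.0%), against 29.2% of all genes, after quantile normalization. The genes of a set are not independent of each other, and these shares carry no test.

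**Figure D5:**
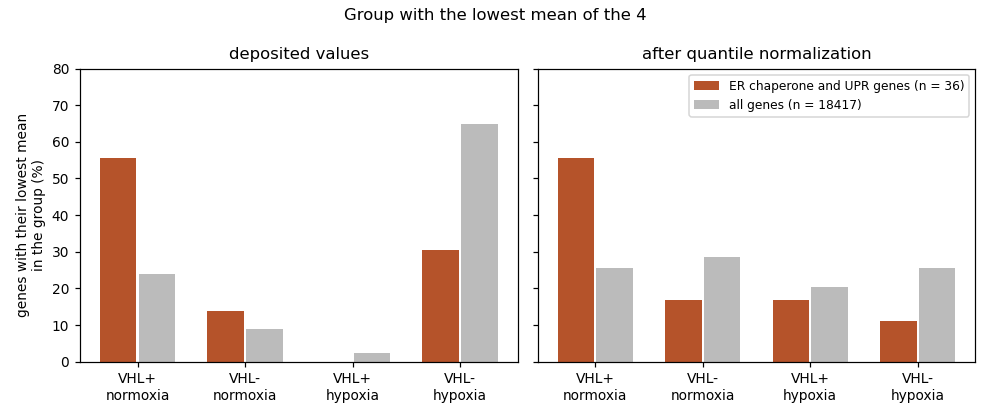
Percent of genes (vertical axis) whose lowest mean of the 4 groups lies in each group, for the 36 measured genes of the set and for all 18417 genes, on the deposited values and after quantile normalization. The bar of the set in VHL+ cells under normoxia stands at 55.6% under both scalings, next to 23.8% and 25.5% of all genes.

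The 10 genes whose promoters hold ERSE or ERSE-II were set beside the 23 whose promoters hold neither. With VHL under normoxia, 0 of the 10 were higher and 1 lower (PDIA6), with a median log2 fold change of -0.24, while of the 23 others 2 were higher and 1 lower, with a median of -0.13. Under hypoxia none of the 10 was called with VHL, while 6 of the 23 were higher, against 14.3% of all genes. At an unadjusted p under 0.05 there were 2 of the 10 and 8 of the 23, beside 5643 of all 18417 genes. After quantile normalization 0 of the 36 genes were called higher, and the medians of the 10 and of the 23 were both -0.04. With hypoxia over all arrays, 1 of the 10 was higher (HERPUD1) and 0 of the 23, with medians of 0.06 and 0.12. In VHL+ cells, all 10 had positive values with hypoxia, between 0.11 and 0.75, as had 22 of the 23 others and 85.6% of all genes. The medians were 0.28 for the 10 and 0.25 for the 23, and 0.13 and 0.11 after quantile normalization. The difference between these medians was not tested.

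Other genes of the same pathways were counted in the same way, where of all genes 3.17% were higher and 3.40% lower in VHL+ cells under normoxia and 14.3% higher and 1.72% lower under hypoxia. Of 24 measured further genes of ER folding and glycosylation, 1 was higher and 3 lower in VHL+ cells under normoxia, and 5 were higher under hypoxia. The oxidase ERO1B, which reoxidises disulfide isomerases, rose by 0.71 on the log2 scale (adjusted p = 0.0133) under normoxia and by 1.24 (adjusted p = 7.76e-05) under hypoxia. The glucosyltransferase homolog UGGT2 and the thioredoxin-domain protein TXNDC11 were higher under hypoxia (0.71 and 0.69), as was ERP44, which retains proteins in the early secretory pathway (0.57). Of 24 genes of translocation and ER exit, 1 was higher and 1 lower under normoxia and 8 were higher under hypoxia, among them SSR3, SEC62, KDELR3 and SPCS3 with log2 fold changes of 0.73, 0.83, 0.77 and 0.72. Of 14 further ERAD genes, 1 was lower under normoxia (NGLY1, which removes glycans from ERAD substrates, -0.65) and 2 were higher under hypoxia (NPLOC4 and UFD1, cofactors of the p97 ATPase, 0.55 and 0.49). Of 10 further regulators of the unfolded protein response, 1 was higher under hypoxia (NFE2L2, a substrate of PERK, 0.81). After quantile normalization, 2 of the folding genes and 2 of the translocation genes were higher under hypoxia, and 1 translocation gene and 1 ERAD gene were lower. With VHL over all arrays, 5 folding genes were higher and 1 lower, and 5 and 7 after quantile normalization. For translocation these were 8 and 3, then 4 and 4. For ERAD they were 1 and 1, then 0 and 5, and for the regulators 1 and 0, then 1 and 1. Of all clusters, 10.6% and 3.72% were called, then 8.40% and 7.60%. With hypoxia over all arrays, no gene of these 4 lists was called (2 of the folding genes, 1 of the regulators and 0 of the others at an unadjusted p under 0.05).

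ATF4 is the branch that PERK opens and that amino acid shortage and other stresses also feed. Of 15 genes downstream of ATF4, 6 were higher and 0 lower with hypoxia over all arrays, with a median log2 fold change of 0.47, against 0.11 for the 36 genes of the set and 0.00 over all genes, of which 0.174% were higher and 0.0597% lower. ASNS (asparagine synthetase) had 7.97 and 8.08 in hypoxic VHL+ cells and 9.07 and 9.36 in hypoxic VHL- cells, against 7.30 and 7.35 in normoxic VHL+ cells and 7.55 and 8.26 in normoxic VHL- cells. Its log2 fold change over all arrays was 1.01 (adjusted p = 0.000849). TRIB3, a pseudokinase induced through ATF4, had a log2 fold change of 1.01 (adjusted p = 0.000982) and DDIT3 (CHOP) one of 0.77 (adjusted p = 0.0241). After quantile normalization none of the 6 was called, with adjusted p values between 0.136 and 0.394, while the median of the list was 0.44 and 14 of its 15 genes were positive.

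With VHL, 4 of these 15 genes were lower and 1 higher under hypoxia (median -0.57, against 0.18 over all genes), and 2 were lower under normoxia. ASNS fell by 1.19 on the log2 scale under hypoxia (adjusted p = 0.000382), DDIT3 by 0.86 (adjusted p = 0.00959) and WARS1, a tRNA synthetase, by 0.75 (adjusted p = 0.00438). TRIB3 fell by 1.25 under normoxia (adjusted p = 0.000566). ATF4 itself had log2 fold changes of 0.03 under normoxia and -0.03 under hypoxia and was not called. After quantile normalization 0 genes of this list were higher and 4 lower under hypoxia, against 2.76% and 2.74% of all clusters.

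The chaperones of the cytosol and the mitochondria formed a last comparison. Of 12 measured heat shock proteins and their partners, 6 were higher and 0 lower in VHL+ cells over all arrays, against 14.9% and 4.79% of all genes. In VHL+ cells, 1 was higher under normoxia and 6 under hypoxia, against 3.17% and 14.3% of all genes. With hypoxia over all arrays 0 were called (3 at an unadjusted p under 0.05). HSPH1, the Hsp110 of the cytosol, rose by 0.81 under normoxia (adjusted p = 0.00489) and by 1.06 under hypoxia (adjusted p = 0.000305). HSPA4, HSPE1 and DNAJB1 had log2 fold changes of 0.71, 0.63 and 0.63 under hypoxia. After quantile normalization, 6 of the 12 were higher and 2 lower in VHL+ cells over all arrays, against 8.40% and 7.60% of all clusters.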

How the data were processed

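Total RNA of 8 cultures was hybridized by the authors to Affymetrix Human Gene 1.0 ST arrays. What the authors deposited are log2 signals of transcript clusters, which they had normalized with RMA in Partek, whose version is not given in the sources used here. RMA brings the arrays to a common scale, yet the array medians still differ, and precision is limited by the number of arrays. The values were used without further transformation. Symbols came from the array annotation (19460 of 33297 clusters with 1 symbol, 1754 with several and 12083 with none) and were updated through Entrez identifiers.

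All 33297 transcript clusters were fitted with limma 3.58.1 in R 4.3.3, with a mean for each of 4 groups (4 residual and 14.0 prior degrees of freedom) for the comparisons within 1 condition and the interaction, and with VHL status and oxygen as factors (5 and 20.7) for those over all arrays. P-values were adjusted by Benjamini and Hochberg over all clusters, with a threshold of 0.05. They measure the spread between labelled replicates only. The fit was tested on simulated data. The members, the lists, the rule for named genes and the tests were chosen with earlier results of these data known. Values per array are given for members called in any of the 7 comparisons and for HSPA5, HSP90B1, XBP1, ATF6, ERN1 and EIF2AK3, and of each other list at most 4 called genes with the lowest adjusted p in the VHL comparisons are named. Promoters came from RefSeq (GRCh38.p14).

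Alternatives were quantile normalization, centring on the array median, a fit to the compared groups alone, robust estimation with a trend, a block for the replicate number, exclusion of dim clusters, restriction to clusters with 1 symbol, averaging of the clusters of a gene, other thresholds, the methods' one-way test and each array left out in turn. Deviations of same-numbered arrays correlated at 0.605 between the groups of VHL- cells and at 0.305 between those of VHL+ cells. Across the cell types the correlations lay between 0.0503 and 0.21. The labels do not say whether same-numbered arrays were handled together, so the block was kept as an alternative only. The proteome and metabolic assays of the study were not used here.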

Additional observations from a re-analysis of the deposited data

Results flagged for a closer look

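For 8 of the 36 genes, every array of one cell type or condition moved one way and every array of the other the opposite way: either VHL+ vs. VHL- arrays were separated in opposite directions under hypoxia and normoxia, or hypoxia vs. normoxia arrays were separated in opposite directions in VHL+ and VHL- cells. The test of this difference is the interaction, and none of the 8 passed it, with an adjusted p of 0.651 in each case (limma). The interaction on the log2 scale was 0.66 for CRELD2 (unadjusted p = 0.00521), 0.55 for the transcription factor CREB3 (0.0139), 0.52 for PDIA4 (0.0134), 0.51 for EDEM2 (0.0233), 0.50 for SDF2L1 (0.0248), 0.42 for HSP90B1 (0.0632), 0.42 for MANF (0.0416) and 0.37 for CALR (0.0807). The direction was the same in all 8, the log2 fold change with hypoxia being higher in VHL+ cells than in VHL- cells, as it was for 95.9% of all genes, whose median interaction was 0.22. After quantile normalization, where 50.3% of all genes were positive, the values were 0.40 for CRELD2, 0.29 for CREB3, 0.30 for PDIA4, 0.24 for EDEM2, 0.25 for SDF2L1, 0.20 for HSP90B1, 0.16 for MANF and 0.16 for CALR. Both kinds of separation were met by CRELD2 and CREB3. How many of all genes had such opposite separations was not counted, so the 8 are not shown to be a trait of the set. On the deposited values, 33.9% of all genes were separated upward with hypoxia in VHL+ cells and 42.7% downward in VHL- cells. With VHL, 27.6% of all genes were separated downward under normoxia and 52.9% upward under hypoxia.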

How the results depend on the processing

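With 2 arrays a group and changes mostly below 0.5 on the log2 scale, calls near the threshold moved with single arrays and with the scaling. No call of a named gene changed its sign. Numbers are genes higher and lower in the order VHL under normoxia (main values 2 and 2), VHL under hypoxia (7 and 0), VHL over all arrays (5 and 2) and hypoxia over all arrays (1 and 0); only numbers that moved by over 1.5 times are given, and the cause was not tested. Quantile normalization gave 0 higher for VHL under normoxia, 0 and 2 under hypoxia, 3 and 5 over all arrays and 0 higher for hypoxia. Centring on the median gave 0 and 1 under normoxia, 1 higher under hypoxia and 0 higher for hypoxia over all arrays. Leaving out dim clusters, which changes the clusters tested, gave 0 and 1 under normoxia and 0 higher for hypoxia over all arrays. A minimum of 1.5-fold gave 1 and 1, 2 higher under hypoxia, and 2 and 0 over all arrays. The fit to the compared groups alone gave 0 and 0, 4 higher under hypoxia, and 2 higher with hypoxia in VHL+ cells. Trend and robust estimation gave 4 lower under normoxia and 2 higher with hypoxia, both in VHL+ cells and over all arrays. Limma at an unadjusted p under 0.005 gave 1 higher with hypoxia in VHL- cells, 4 in VHL+ cells and 3 over all arrays. The methods' one-way test was run here on each pair of groups. At an unadjusted p under 0.005 it gave 0 and 0 under normoxia and 1 higher under hypoxia, and 0, 0 and 0 after adjustment. At the unadjusted threshold, hypoxia gave 1 lower in VHL- cells and 3 higher in VHL+ cells. That test and the fit to the compared groups alone give no value for the interaction or over all arrays.

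The replicate number as a block gave 4 lower under normoxia and 2 higher with hypoxia, both in VHL+ cells and over all arrays. The replicate block with quantile normalization gave 1 higher under normoxia, 1 and 2 under hypoxia, 6 lower for VHL over all arrays and 0 higher for hypoxia over all arrays. With the block on the deposited values, the limma call of HERPUD1 with hypoxia over all arrays had an adjusted p of 2.74e-05, in place of 0.0169. Whether the numbers pair the arrays is not known from the labels. With each array left out in turn, the genes higher and lower with VHL numbered 0 to 2 and 1 to 6 under normoxia, 0 to 7 and 0 to 0 under hypoxia, and 2 to 6 and 2 to 4 over all arrays. With hypoxia, 0 to 1 were higher in VHL- cells, 0 to 3 in VHL+ cells and 0 to 3 over all arrays, and none was lower or called in the interaction.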
